A study of Piriqueta cistoides subsp. caroliniana with 18 samples.

Results

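Named transcription factors on the array were the 33 tested probes whose single gene symbol starts with a transcription factor family name or is GAI1, and which had a value on at least 14 of the 18 arrays. They were 33 of 7880 probes tested on an array of 9600, and stood for 29 of the 309 genes that tested probes name by a single symbol: 9 bZIP probes for 9 genes, 10 MYB probes for 9 genes, 4 NAC and 4 WRKY probes for 4 genes each, 4 DREB probes for 2 genes, and 2 probes for GAI1. The rule matched 34 probes; the remaining one, HSF-33, a heat shock factor, had values on 13 arrays and was not tested. No tested probe carried a symbol starting with ERF, AP2, bHLH, MADS, GATA or DOF. Of the members, 22 had a value on every array.

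The study measured leaf RNA of the herb Piriqueta cistoides subsp. caroliniana in 3 morphotypes (caroliniana, viridis and their hybrid), each well-watered or droughted, with 3 plants in each of the 6 groups. Plants were cuttings grown in sand in a greenhouse held near 35 °C by day and 27 °C by night with a 12 h day, and drought came as 4 cycles within 36 days. Plants are named here by morphotype (C, V, H), number and treatment (D for drought, W for well-watered), so H2W is well-watered hybrid plant 2. Each plant was hybridised on 2 arrays, once with each dye, and the 18 two-colour arrays closed into 1 loop: 6 arrays set a drought plant against a well-watered plant of its morphotype, and 12 set 2 morphotypes against each other under 1 treatment. The labels do not say whether plants of a group were cuttings of 1 genotype, so p-values speak only for these plants. They rest on the spread of arrays and plants pooled over all groups. Plant variance was held at 0.25 of the array variance for every probe.

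Transcription factors bind DNA near genes and switch their transcription on or off, and several of these families are known for their part in plant responses to water deficit. DREB proteins bind a short promoter element of dehydration- and cold-responsive genes. Some bZIP proteins act in abscisic acid signalling, the hormone path that closes stomata in dry soil. MYB, NAC and WRKY are large families with members in stress, development, pigment synthesis and senescence. GAI1 is a DELLA protein, a nuclear repressor of gibberellin-driven growth that hormone binding marks for destruction.

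The probes are soybean cDNA clones hybridised with RNA of another plant family, so a symbol names the soybean clone, and related Piriqueta genes that bind the same clone cannot be told apart. A log ratio carries no expression level, so levels of different genes cannot be compared, and fewer cells of a type cannot be told from less RNA per cell. Neither the base of the logarithm nor the channel order was stated. Values were read as Cy5 over Cy3, so a positive drought effect means more signal in drought plants under that reading, and the opposite reading swaps the sides of every value below. As a landmark, the 4 probes of CAB3, a light-harvesting chlorophyll-binding protein that marks leaf mesophyll, had averaged drought effects of 1.79 to 3.56 on the positive side, and all 4 passed the threshold. The other mesophyll markers with tested probes were CHLH, of chlorophyll synthesis, whose 2 probes were at 0.717 and 0.775 with 1 called, and PSAD, of photosystem I, whose 2 probes were at -0.088 and 0.339 with 0 called. No tested probe carried the listed markers of trichomes, guard cells, phloem or xylem.

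With all 18 plants, none of the 33 transcription factor probes passed the threshold (adjusted p under 0.05, limma moderated test on a loop model with Benjamini-Hochberg adjustment over all probes) for drought averaged over the morphotypes, where 1.94% of all probes passed. At an unadjusted p under 0.05 there were 3 members, 9.09% of the 33 against 10.5% of all probes. They were MYB57, WRKY53 and BZIP121, and all 3 lay on the negative side. In all, 23 of 33 members (69.7%) had an averaged effect below 0, against 60.2% of all probes. Once arrays were centred on their medians, these were 22 of 33 members and 3865 of 7880 probes. As deposited, the median effect was -0.040 for the members and -0.022 for all probes. The median SD of a probe over arrays was 0.176 for members and 0.181 for all tested probes. The widest was MYB143 (SD 0.365) and the narrowest was WRKY40 (SD 0.0848).

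MYB57 (probe Gm09199) had the smallest p for averaged drought. On the 6 arrays that set drought against well-watered plants, its ratios were -0.048 (C1D over C2W), -0.092 (C2D over C1W), -0.16 (V1D over V2W), -0.18 (V2D over V1W), -0.076 (H1D over H2W) and -0.40 (H2D over H1W). Ratios of single arrays, here and below, still hold a probe's dye offset, which the model takes off. Every one of the 6 was negative, also after the offset was taken off, and the averaged effect was -0.16 ± 0.051 (SE, 3 plants per group, adjusted p = 0.174). It was -0.073 ± 0.075 in caroliniana, -0.20 ± 0.073 in viridis and -0.20 ± 0.073 in the hybrid.

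WRKY53 (Gm05035) was also negative on all 6 arrays, with and without its dye offset, with ratios of -0.012 and -0.16 in caroliniana, -0.085 and -0.077 in viridis, and -0.091 and -0.24 in the hybrid. Its averaged effect was -0.11 ± 0.038 (adjusted p = 0.221). WRKY proteins bind a W-box element, and the Arabidopsis gene called WRKY53 acts in leaf senescence; whether the soybean clone of that number corresponds to it is not given in the sources used here. The values were small but close together, since this probe's SD over all arrays was 0.0919.

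BZIP121 (Gm09933) gave ratios of -0.13 and -0.25 in caroliniana, -0.16 and -0.31 in viridis, and -0.15 in both hybrid arrays. Its averaged effect was the most negative of the members, -0.21 ± 0.090 (adjusted p = 0.417). It was negative on all 6 with and without its dye offset. These 3 probes were the members that pointed one way on all 6 arrays once the offset was taken off, 3 of the 30 with all 6 values (10%), against 6.75% of all such probes. As deposited, GAI1 Gm04090 was negative on all 6 too, but 3 of its ratios turned positive (0.014, 0.078 and 0.094) once its offset of 0.097 was taken off. The smallest p values of the other families for averaged drought belonged to NAC2 (-0.14 ± 0.070, adjusted p = 0.514), GAI1 Gm04114 (-0.16 ± 0.093, adjusted p = 0.606) and DREB1-like Gm04831 (-0.029 ± 0.078, adjusted p = 0.942).

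By morphotype, no member passed for drought in caroliniana (0.799% of all probes did), in viridis (0.711%) or in the hybrid (2.07%). At an unadjusted p under 0.05 the members numbered 0 in caroliniana (3.97% of all probes), 1 in viridis (4.85%) and 4 in the hybrid (13.7%). Effects below 0 numbered 18 in caroliniana (54.5% of members, 54.4% of all probes) and 25 in viridis (75.8%, against 57.2%). Once arrays were centred, they numbered 15 and 21 of 33, against 3763 and 3929 of 7880 probes. All 3 drought effects had the same sign in 17 members (51.5%), 15 negative and 2 positive, against 47.3% of all probes.

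**Figure D1:**
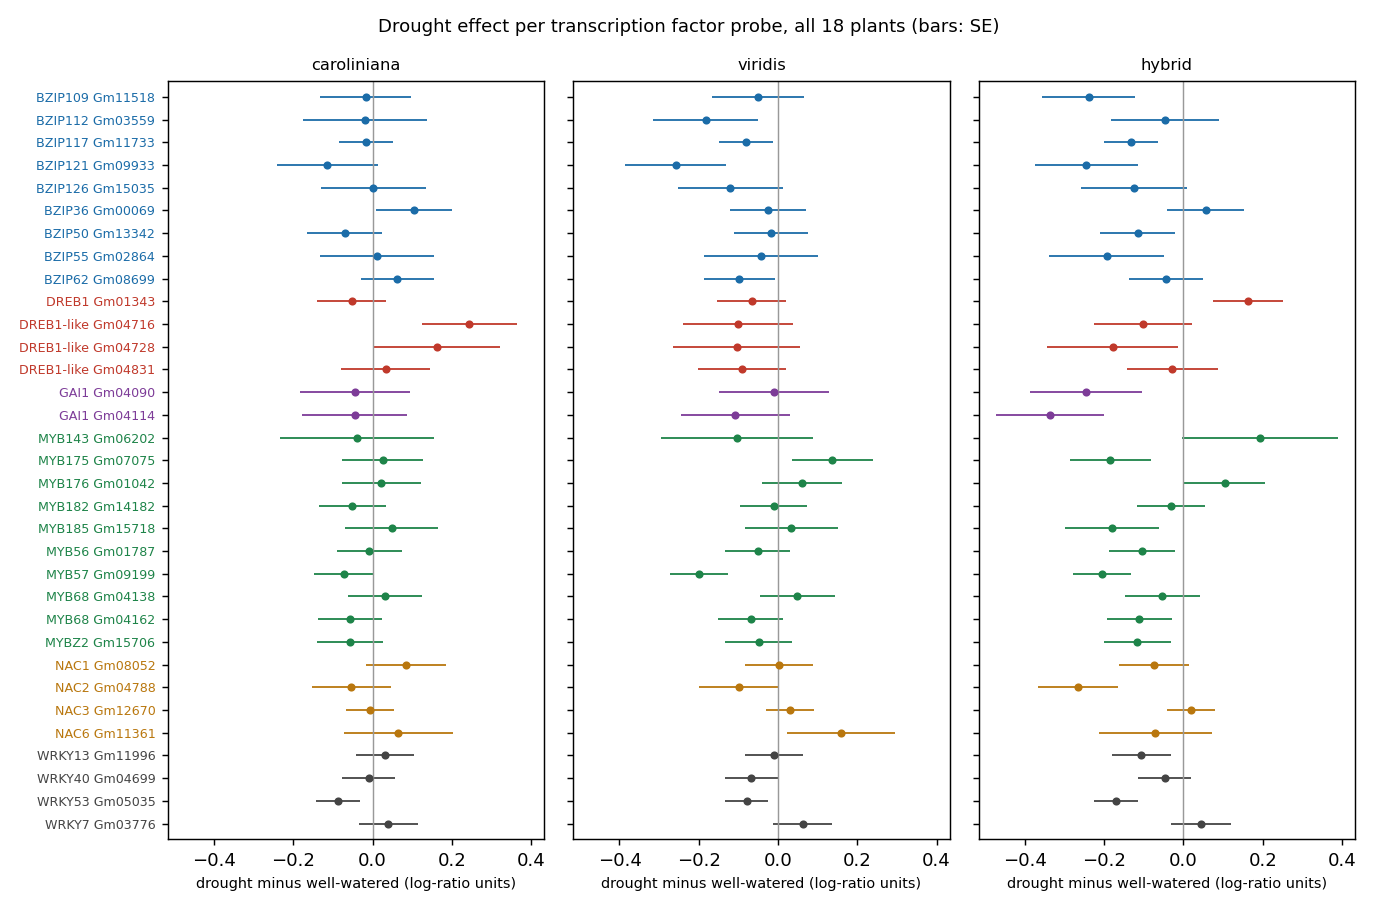
Drought minus well-watered effect of each of the 33 transcription factor probes in caroliniana, viridis and the hybrid, all 18 plants, in the units of the deposited log ratio; points are fitted effects, bars are SE, colours mark families. Effects run from -0.11 to 0.24 in caroliniana, -0.26 to 0.16 in viridis and -0.34 to 0.19 in the hybrid, and none passed the threshold.

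The bZIP probes lay mostly on the negative side under drought. They numbered 5 of 9 in caroliniana (6 once arrays were scaled), 9 of 9 in viridis (8 of 9 once arrays were centred or scaled) and 8 of 9 in the hybrid. The family medians were -0.016, -0.080 and -0.12. BZIP36 was the hybrid exception at 0.057. The MYB probes had 6 of 10 below 0 in caroliniana, 6 in viridis and 8 in the hybrid, with medians of -0.024, -0.030 and -0.11. Once arrays were centred, these MYB counts were 5, 5 and 7, and scaling also gave 5 in viridis. In the hybrid, MYB143 (0.19 ± 0.20) and MYB176 were the members above 0; MYB176 is known in soybean as a regulator of a chalcone synthase gene of isoflavonoid synthesis. None of these effects passed the threshold.

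The WRKY probes had 2 of 4 below 0 in caroliniana, 3 in viridis and 3 in the hybrid, with medians of 0.011, -0.038 and -0.076. The WRKY count in viridis was 2 once arrays were centred or scaled, and that in caroliniana was 1 once they were centred. The NAC medians were 0.029 (-0.0032 once arrays were scaled), 0.016 and -0.073. For NAC6 the 6 ratios, with its dye offset of 0.218 taken off, ran from -0.38 (H2D over H1W) to 0.65 (V2D over V1W). The signs of the DREB effects varied: 3 of 4 were above 0 in caroliniana (median 0.098), none in viridis (median -0.097) and 1 in the hybrid (median -0.065, with 2 of 4 above 0 once arrays were centred or scaled). The median SE of these probes was 0.116 in caroliniana, 0.125 in viridis and 0.12 in the hybrid, and none of the effects passed the threshold.

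The DREB1-like probe Gm04716 had the smallest p of the members for drought in caroliniana and for the difference in drought effect between morphotypes. Its ratios were 0.022 and 0.39 in caroliniana, -0.15 on the one viridis array with a value, and -0.31 and 0.21 in the hybrid. The 2 hybrid arrays therefore disagreed in sign. Its drought effect was 0.24 ± 0.12 in caroliniana, -0.10 ± 0.14 in viridis and -0.10 ± 0.12 in the hybrid, and the interaction test on 2 numerator degrees of freedom gave an adjusted p of 0.998.

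MYB175 (Gm07075) had the next smallest interaction p, with effects of 0.026 ± 0.10 in caroliniana, 0.14 ± 0.10 in viridis and -0.18 ± 0.10 in the hybrid (adjusted p = 0.998). For the interaction, 0 of 33 members and 0% of all probes passed; at an unadjusted p under 0.05 the members again numbered 0, against 2.35% of all probes. No member's drought effect was thus shown to differ between morphotypes with all plants in the model.

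Plant H2W is treated apart because an earlier analysis of these data had already singled it out. P-values and intervals without H2W, here and below, therefore describe the fit and do not hold as tests at their stated level. The labels give no reason to exclude H2W, and leaving it out keeps 2 well-watered hybrid plants. Its 2 arrays, with H1D and with V3W, go with it, so the loop is open. H2D over H1W is then the only array that sets hybrid treatments directly against each other, and leaving out either of those plants removes it too. Without H2W, 7 of 33 transcription factor probes (21.2%) passed for drought in the hybrid, against 14.6% of all probes. Of these, 2 lay on the positive side (5.83% of all probes did), MYB143 and DREB1, and 5 on the negative side (8.76%): GAI1 Gm04114, BZIP55, NAC2, MYB57 and WRKY53. At an unadjusted p under 0.05 there were 15 members (32.6% of all probes). Centring the arrays left MYB143, DREB1 and GAI1 called and ended the calls of BZIP55, NAC2, MYB57 and WRKY53, and the model with no dye intercept called 1 member. With 1 further plant left out the count was 0 without H1W or H2D and ran up to 8. Leaving out any of the other 17 plants in place of H2W gave 0 members in this comparison, with 0.825% to 2.78% of all probes called.

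**Figure D2:**
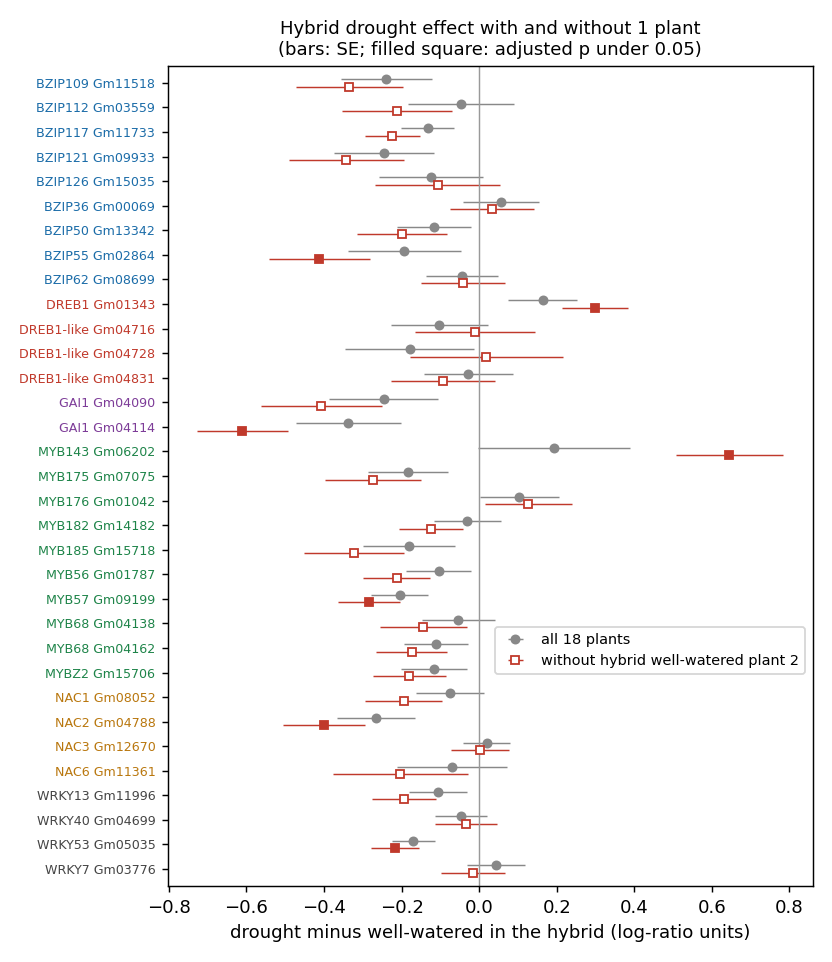
Drought effect in the hybrid for each of the 33 probes with all 18 plants (grey circles) and without plant H2W (red squares, filled where adjusted p is under 0.05), in log-ratio units with SE bars. Without H2W, 7 squares are filled: 2 to the right of 0, MYB143 and DREB1, and 5 to the left.

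GAI1, the gibberellin repressor, had the largest negative effect. Plant values, solved around the loop and centred per probe, were -0.17 (H1D), -0.42 (H2D) and -0.62 (H3D) for probe Gm04114 under drought, and 0.22 (H1W), -0.19 (H2W) and 0.48 (H3W) when watered. H1W and H3W lay above all 3 drought plants, whereas H2W lay among them. The hybrid drought effect was -0.34 ± 0.14 with all plants (adjusted p = 0.283) and -0.61 ± 0.12 without H2W (adjusted p = 0.00511, 95% interval -0.86 to -0.36), a 1.53-fold difference if the logarithm has base 2 and 1.84-fold if it is natural. In caroliniana it was -0.045 ± 0.13 and in viridis -0.11 ± 0.14 with all plants.

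The other GAI1 probe, Gm04090, whose accessions are the same, gave an effect of -0.25 ± 0.14 with all plants and -0.41 ± 0.16 without H2W (adjusted p = 0.0886). Over 17 arrays both GAI1 probes had a Pearson r of 0.577 and a Spearman rho of 0.743, given as a description since arrays share plants. Both probes thus had the same sign, and 1 of them passed.

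MYB143 (Gm06202) had the largest positive effect and the largest dependence on H2W. Its plant values were 0.094 (H1D), 0.62 (H2D) and 0.25 (H3D) under drought, and -0.14 (H1W), 0.65 (H2W) and -0.44 (H3W) when watered. H2W was the highest of the 6 hybrid plants. The direct array H1D over H2W gave -0.42, and H2D over H1W gave 0.63. The effect was 0.19 ± 0.20 with all plants (adjusted p = 0.666) and 0.65 ± 0.14 without H2W (adjusted p = 0.0106), and it turned to -0.11 without H1W and -0.13 without H2D.

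DREB1 (Gm01343), of the family that binds the dehydration-responsive element, had plant values of 0.15 (H1D), 0.29 (H2D) and 0.16 (H3D) under drought, against 0.0052 (H1W), 0.20 (H2W) and -0.32 (H3W) when watered. All 3 drought plants lay above H1W and H3W, and H2W lay among the drought plants. The effect was 0.16 ± 0.088 with all plants (adjusted p = 0.418) and 0.30 ± 0.085 without H2W (adjusted p = 0.0333). The effects in caroliniana (-0.053 ± 0.087) and viridis (-0.066 ± 0.088) with all plants were on the other side of 0. Without H2W the DREB1-like probes were at -0.011 (Gm04716), -0.093 (Gm04831) and 0.019 (Gm04728), none called, and their correlations with each other over 16 or 17 arrays ran from -0.288 to 0.561.

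NAC2 (Gm04788) had closely grouped drought plants, at -0.31 (H1D), -0.22 (H2D) and -0.32 (H3D). The watered plants were at 0.032 (H1W), -0.27 (H2W) and 0.42 (H3W), so H2W again fell within the drought plants. The effect was -0.27 ± 0.10 with all plants (adjusted p = 0.253) and -0.40 ± 0.11 without H2W (adjusted p = 0.0254). On the direct arrays of the parents, NAC2 was negative on 3 of 4, at -0.17, -0.14, -0.15 and 0.044.

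BZIP55 (Gm02864) had drought values of -0.20 (H1D), 0.10 (H2D) and -0.017 (H3D) and watered values of 0.40 (H1W), -0.35 (H2W) and 0.21 (H3W). H2W was the lowest hybrid plant and H1W the highest. The effect was -0.19 ± 0.15 with all plants (adjusted p = 0.549) and -0.41 ± 0.13 without H2W (adjusted p = 0.0481). This call was the least stable of the 7: it was lost in 16 of the 17 fits that left out 1 further plant.

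Of the 7, MYB57 and WRKY53 had effects that moved least when H2W was left out. For MYB57 the drought plants were at -0.026 (H1D), -0.11 (H2D) and -0.098 (H3D), and the watered plants at 0.29 (H1W), 0.037 (H2W) and 0.019 (H3W). All 3 watered plants lay above all 3 drought plants, and the effect was -0.20 ± 0.073 with all plants (adjusted p = 0.229) and -0.29 ± 0.080 without H2W (adjusted p = 0.0332). For WRKY53 the drought plants were at -0.12, -0.16 and -0.063 and the watered plants at 0.082 (H1W), -0.035 (H2W) and 0.11 (H3W), again without overlap. Its effect was -0.17 ± 0.055 with all plants (adjusted p = 0.168) and -0.22 ± 0.063 without H2W (adjusted p = 0.0361).

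**Figure D3:**
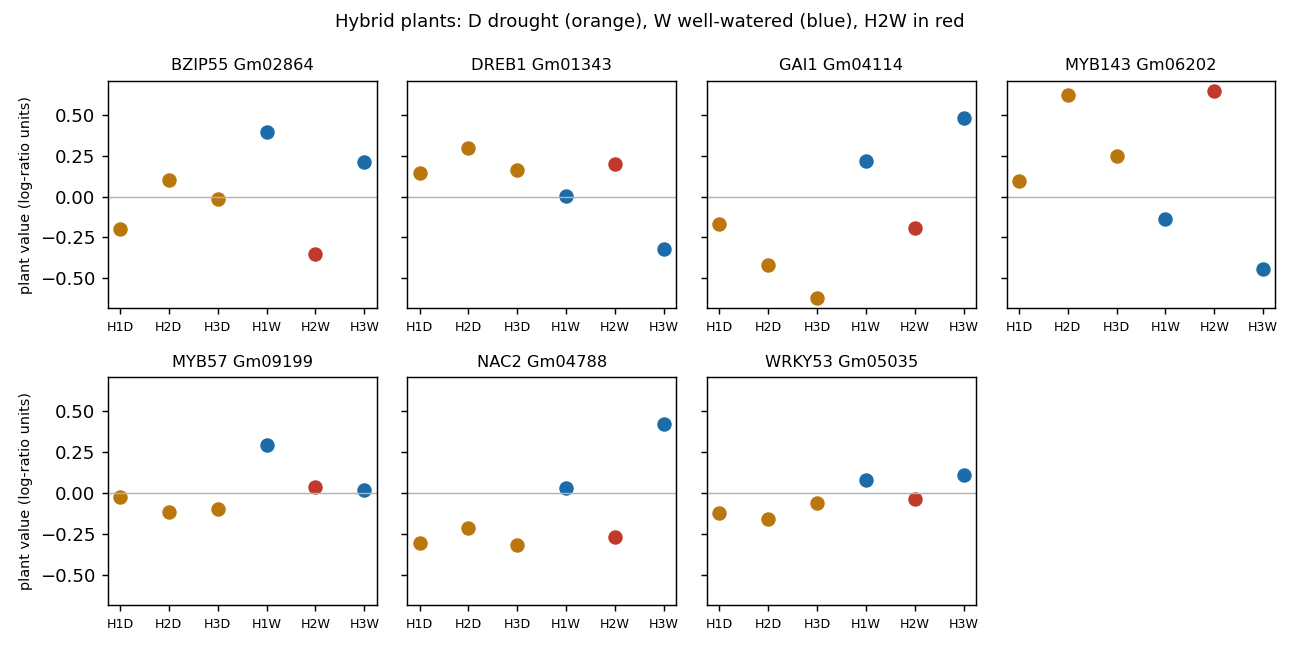
Plant values (log-ratio units, centred per probe) of the 6 hybrid plants for the 7 probes called without H2W; orange points are drought plants, blue are well-watered, red is H2W. H2W lies at or beyond the drought plants for MYB143 (0.65) and BZIP55 (-0.35), among them for NAC2, GAI1 and DREB1, and above all 3 of them for MYB57 and WRKY53.

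H2W lay nearer the drought mean than the mean of H1W and H3W in 20 of the 28 members that have plant values (71.4%), and in 72.5% of all 6800 probes with such values. With all plants, the hybrid treatments did not overlap in 3 members (10.7%), all lower under drought, against 10.9% of all probes. Without H2W they did not overlap in 16 (57.1%), 2 higher and 14 lower under drought, against 42.5% of all probes. Caroliniana gave 1 such member (6.6% of all probes) and viridis 2 (6.62%). Separation was not counted by side over all probes, so the sides given for members have no background to compare with.

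Leaving out H2W made the hybrid drought effect larger in size in 25 of 33 members (75.8%) and in 83.2% of all probes. The median size went from 0.116 to 0.199 for members and from 0.102 to 0.173 for all probes. By family, the median hybrid effect without H2W was -0.51 for GAI1, -0.21 for bZIP, -0.20 for NAC, -0.18 for MYB, -0.11 for WRKY and 0.0041 for DREB. Centring or scaling the arrays kept these signs but not the sizes: with centring the medians were -0.44 for GAI1, -0.14 for bZIP, -0.13 for NAC, -0.10 for MYB, -0.040 for WRKY (2 of 4 probes below 0 in place of 4) and 0.075 for DREB. In all, 27 of 33 members (81.8%) lay below 0 with all plants and 27 without H2W, against 62.2% and 60.6% of all probes. Once arrays were centred, the members below 0 numbered 25 and 23, against 3991 of 7880 and 3899 of 7879 probes.

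On the direct arrays, the members' median was -0.095 on H2D over H1W and -0.024 on H1D over H2W, against -0.046 and -0.0041 for all probes. In the 4 arrays of the parents it ran from -0.059 to -0.011, and for all probes from -0.034 to -0.0078. Array H2D over H1W was the one on which all 7 probes called without H2W had their furthest drought ratios, with and without the dye offset. As deposited, they were -0.58 (GAI1 Gm04114), -0.40 (MYB57), 0.63 (MYB143), 0.31 (DREB1), -0.24 (WRKY53), -0.22 (NAC2) and -0.22 (BZIP55). This array is also the only direct hybrid drought array left without H2W.

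**Figure D4:**
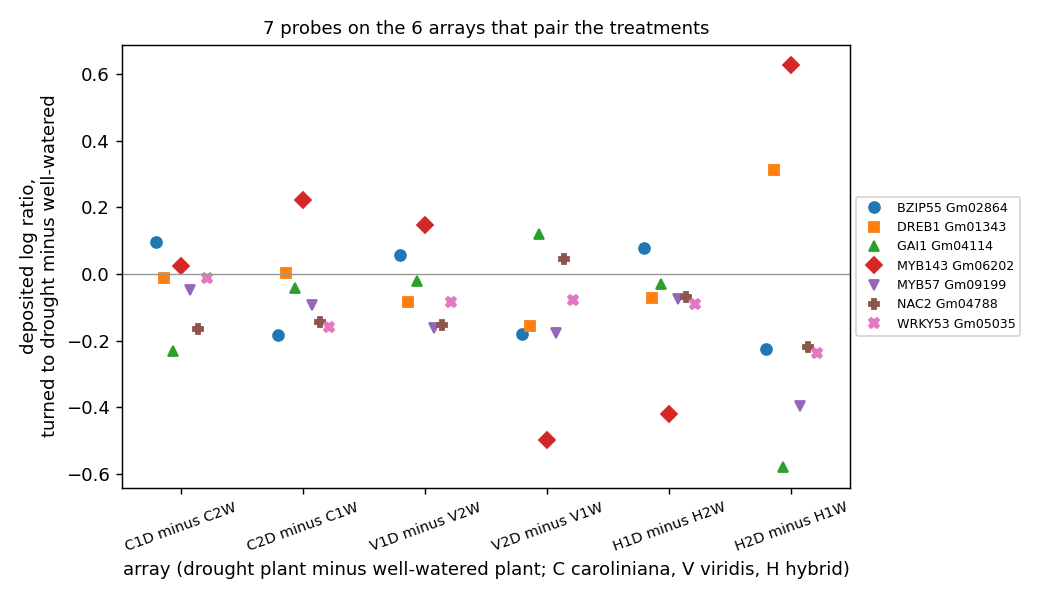
Deposited log ratios, turned to drought minus well-watered, of the 7 probes on the 6 arrays that pair the treatments within a morphotype; each marker is 1 probe on 1 array, with its dye offset left in. MYB57 and WRKY53 are below 0 on all 6 arrays, and GAI1 Gm04114 (-0.58) and MYB143 (0.63) lie furthest out on H2D minus H1W.

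The other comparisons gave no member past the threshold without H2W either: averaged drought (0 members, 4.73% of all probes), drought in caroliniana (0, 1.35%), drought in viridis (0, 1.09%) and the interaction (0, 1.57%). At an unadjusted p under 0.05 there were 7 members for averaged drought (20% of all probes), 0 in caroliniana (5.99%) and 2 in viridis (6.71%). Effects below 0 numbered 25 for averaged drought (60.4% of all probes), 19 in caroliniana (55.7%) and 24 in viridis (55.7%). Once arrays were centred, these counts were 23, 16 and 21 of 33, against 3713, 3680 and 3845 of 7879 probes. MYB57 came closest for averaged drought, at -0.19 ± 0.051 (adjusted p = 0.051). For the interaction, MYB143 (adjusted p = 0.0615), GAI1 Gm04114 (0.0824) and DREB1 (0.104) had the smallest values, and 7 members had an unadjusted p under 0.05 (17.2% of all probes). The hybrid against the mean of both parents in drought response was not tested on its own.

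No member passed between the parental morphotypes. For caroliniana against viridis over both treatments, 0 members and 0% of all probes passed with all plants, and 2 members had an unadjusted p under 0.05 (3.76% of all probes). These were MYB182 (Gm14182), at -0.17 ± 0.063, and MYB57, at -0.16 ± 0.060 (adjusted p = 0.855 for both). On the arrays that set caroliniana directly against viridis, MYB182 gave -0.23 and -0.12 under drought and 0.024 and -0.13 when watered, and MYB57 gave -0.049, -0.16 and, on the one watered array with a value, -0.26. In other families the smallest p values belonged to NAC2 (-0.16), BZIP117 (-0.095), DREB1, GAI1 Gm04090 and WRKY13 (Gm11996, whose soybean gene raised sensitivity to salt when expressed in Arabidopsis).

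Caroliniana lay below viridis in 23 of 33 members over both treatments (69.7%, against 54.3% of all probes) and in 25 when watered (75.8%, against 54.5%). When watered, the comparison called 0 members and 0% of all probes, with 1 member (MYB57, -0.22 ± 0.082) at an unadjusted p under 0.05 (2.36% of all probes). Under drought it also called 0 members and 0% of probes, with MYB182 (-0.19 ± 0.082) the 1 member at an unadjusted p under 0.05 (2.17% of all probes); 20 members lay below 0 there (53.4% of all probes). Without H2W these 3 comparisons still called 0 members and 0% of all probes, and 3 members had an unadjusted p under 0.05 over both treatments (5.15% of all probes).

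**Figure D5:**
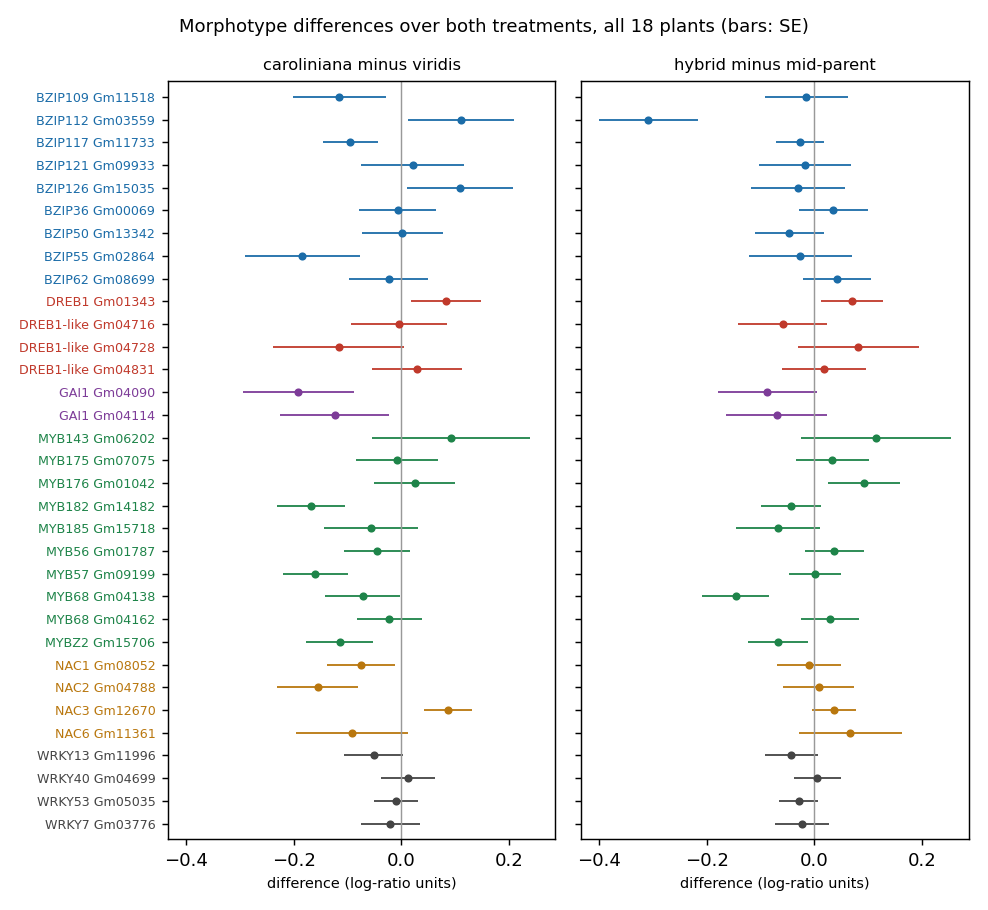
Differences between morphotypes over both treatments for the 33 probes with all 18 plants, in log-ratio units with SE bars: caroliniana minus viridis, and hybrid minus the mean of both parents. No effect passed the threshold; BZIP112 lies furthest from 0 in the hybrid panel, at -0.31.

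The hybrid was also set against the mean of its parents. With all plants 0 members passed over both treatments (0% of all probes), when watered (0.0127%) or under drought (0%). At an unadjusted p under 0.05 there were 2 members over both treatments (6.07% of all probes), 1 when watered (3.27%) and 3 under drought (9.89%). BZIP112 (Gm03559) had the smallest p in all 3, at -0.31 ± 0.092 over both treatments (adjusted p = 0.760), -0.34 ± 0.13 when watered and -0.28 ± 0.11 under drought. Its direct ratios of hybrid over parent still held its dye offset. They were -0.94 (H3D over C1D), -0.82 (H2D over V3D) and -0.41 (H2W over V3W), beside 4 values between 0.048 and 0.11. The 3 negative values came from arrays with the hybrid in Cy3, and the 4 positive ones from arrays with it in Cy5. The offset was 0.268, larger than each positive value, so all of these ratios were below 0 once it was taken off. That offset was fitted to the same arrays, these ratios among them, so the shared sign is not separate evidence. The median deposited ratio of this probe over its 16 arrays was 0.112. Without V3D the effect over both treatments was -0.21, the smallest in size of the fits that left out 1 plant, none of which reversed it. The title of the array with H2D and V3D carries the word BAD. MYB68 Gm04138 came next, at -0.15 ± 0.062, while the probe Gm04162 of the same accessions did not follow it over 18 arrays (r = -0.060, rho = 0.084).

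Over both treatments 18 members lay below the parents' mean (53.1% of all probes). When watered, 8 of 33 members lay below the parents' mean (24.2%, against 46.2% of all probes), and under drought 24 did (72.7%, against 56.1%). Without H2W these were 12 over both treatments (36.4%, against 49% of all probes), 9 when watered (27.3%, against 38.5%) and 25 under drought (75.8%, against 55.8%). No member passed without H2W when watered (1.28% of all probes), under drought (0.127%) or over both (0.0381%). GAI1 Gm04114 had the smallest p of the members when watered, at 0.34 ± 0.11 (adjusted p = 0.189). It shares its watered hybrid plants with the drought effect above, so both values are not separate measurements.

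Likeness was about the same within and between families. Each Pearson r used the arrays on which both probes had a value. The median was 0.185 in 95 pairs of different genes within a family and 0.178 in 428 pairs between families. It was 0.037 for all pairs of probes with values on all 18 arrays, a filter that not every member met. These are descriptions, since arrays share plants and dyes.

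Other genes of these paths were taken from lists matched by symbol. Other transcription regulators were 7 probes of 5 genes (ARF, AUX22, EREBP1, LHY and SBPRP, some of which may not be regulators, since they were matched by the start of the symbol), and 0 passed for averaged drought, for drought in the hybrid or for caroliniana against viridis, with or without H2W. Heat shock proteins were 3 probes of 1 gene, BIP4, a chaperone of the endoplasmic reticulum, and 0 passed. Hormone genes were 14 probes of 8 genes, and 0 passed with all plants. Without H2W, 2 of 14 passed for drought in the hybrid, where 14.6% of all probes did. They were AOS1, an enzyme of jasmonate synthesis, above 0 and LOX2, a lipoxygenase, below it. Whether the soybean clone LOX2 acts in jasmonate synthesis is not given in the sources used here. AOS1 and LOX2 were named after their values were seen.

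The list of late embryogenesis and dehydration proteins, a class that protects cells as they lose water, held 14 probes of 9 genes. They were matched by the start of the symbol, and RAB2, PMM, PM23, PM37 and PM34 among them may be other proteins. With all plants 0 passed. Without H2W, 5 passed for drought in the hybrid (14.6% of all probes did), 4 of them with effects above 0 (5.83% of all probes), 2 probes each of PM23 and PM37, and 1 below (8.76%), PM34. For averaged drought 1 passed (4.73% of all probes). That last one was a probe of PM23, Gm05758, a seed maturation protein gene, at 0.37 ± 0.091 (adjusted p = 0.0336), against 0.32 ± 0.11 with all plants (adjusted p = 0.214). Median hybrid drought effects of the dehydration list were 0.033 with all plants and 0.14 without H2W, beside -0.11 and -0.19 for the 33 transcription factors. For all probes they were -0.044 and -0.070. The difference between these sets was not tested.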

How the data were processed

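The authors deposited 1 normalised log ratio per probe and array, handled here as log2 values; per the labels, amplified RNA was labelled with Cy3 and Cy5. Normalisation, base and channel order are not given in the sources used here; a range of -5.83 to 5.58 is too wide for base 10, given that 16-bit scanners span 4.82 log10 units. Arrays held 5962 to 8134 values, and no depth applies; 18 arrays limit the precision. Titles name both plants, the first read as Cy3 and the second as Cy5.

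A generalised least squares model per probe had 6 group means, a dye intercept and plant as a random effect (plant variance 0.25 of the array variance, by REML), moderated with limma 3.58.1 in R 4.3.3, and adjusted by Benjamini-Hochberg over all 7880 probes with 14 or more values (7879 without H2W). The fit was tested on simulated data. Plant values solve the loop exactly for 28 members, so array noise adds up in them. Figures used matplotlib 3.10.9. The probe table gave 546 probes 1 symbol, 6 several and 9048 none.

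Named members are those past the threshold in any comparison, the smallest p per family for averaged drought and for caroliniana against viridis, and the 2 smallest per comparison; PM23 was named for passing averaged drought. BZIP36, MYB176, NAC6 and the second probes of a gene and the PM37 and PM34 probes were singled out after their values were seen. Members, lists and the omission of H2W were chosen with earlier results of these data known. Alternatives left out plants or 1 array, changed the plant variance, scaling, dye term or filter, averaged probes per gene, or added plant number as a block.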

Additional observations from a re-analysis of the deposited data

How the results depend on the processing

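With all plants, 0 members were called in all 11 comparisons under every alternative run, except for drought in the hybrid: leaving out 1 plant gave 0 to 7 (7 only without H2W), and leaving out both H2W and V3D gave 6. The count of 7 without H2W, with alternatives chosen after seeing the data, fell to 3 with arrays centred on medians (2 positive, 1 negative: MYB143, DREB1 and GAI1; 66.7% positive against 28.6%), and was 5 with arrays scaled to 1 median absolute deviation (40% positive). It fell to 1 with no dye intercept and to 4 with the replicate block, and leaving out 1 further plant gave 0 to 8: 0 without H1W or H2D, 1 without H3W, and 2 without C1D, C2D, H3D or V2W. Without the array marked BAD it was 6. GAI1 Gm04114 was lost in 2 of those 17 fits, MYB143 in 3, MYB57 and NAC2 in 9 each, DREB1 and WRKY53 in 13 each and BZIP55 in 16. With all plants, leaving out 1 plant moved the hybrid drought effect of MYB143 Gm06202 from -0.13 to 0.65 and the averaged drought effect of DREB1-like Gm04831 from -0.083 to 0.023. Over all probes, drought averaged over morphotypes gave 153 calls, 100 without V2W, 102 without C2W, 373 without H2W, 304 without both H2W and V3D and 243 with scaled arrays. Plant numbers did not pair samples: plants of the same number correlated at -0.696 to 0.617 (median -0.102) and others at -0.685 to 0.783, so the replicate block shows only a shared number. Centring moved the median of all probes for drought in the hybrid from -0.044 to -0.0025. The causes were not tested.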
